A study of Oryza sativa with 12 samples.

Results

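Sugar transporters, invertases and sucrose synthases of rice were followed through 6 h of cold in seedling shoots and leaves. The members are the genes of an annotated gene table whose symbol or synonym, without a leading Os, is SWEET, SUT, SUS, CIN, MST, TMT or INV with a number and at most 1 letter. The rule found 34 of 39387 genes, namely 14 SWEET, 4 SUT, 2 MST, 7 SUS and 7 CIN or INV genes, and no TMT gene. A probe set paired with 1 gene alone was present for 29 of them, with 35 probe sets in all, against 17905 such genes on the whole array. SUS7, CIN5, CIN6, SWEET3A and SWEET13 had none and were not analysed here. Of the 29 measured genes, 24 passed a filter on low signal. CIN2, CIN3, MST5, SWEET5 and SWEET12 did not, and read 8.7 to 23.6, 6.5 to 10.0, 5.3 to 9.3, 15.4 to 24.3 and 4.9 to 8.5 on the 12 arrays.

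Rice leaves export most of their fixed carbon as sucrose. SWEET proteins are uniporters that let sucrose or hexoses pass down their gradient across the plasma membrane or the vacuole membrane, and SUT proteins are sucrose transporters driven by the proton gradient that load the phloem or empty the vacuole. MST proteins take up hexoses. Cell wall invertases (CIN genes) split sucrose irreversibly into glucose and fructose, and sucrose synthases (SUS genes) split it reversibly into UDP-glucose and fructose. Several SWEET genes of rice, among them SWEET11, SWEET14 and SWEET15, are known for feeding the filling grain, and SWEET11 and SWEET14 also for being switched on by the bacterial blight pathogen. In seedlings under cold, soluble sugars commonly accumulate.

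Total RNA from 4-leaf-stage seedlings grown in potting soil was measured on 12 GeneChip arrays, with 1 array per line and time. In cultivar ZH11, 2 independent lines that overexpress OsMYB30 (OE2 and OE28) were set beside 1 control of the same cultivar. In cultivar Huayang, 2 homozygous osmyb30 mutants (mutant 1 and mutant 2) were set beside 1 wild type. OsMYB30 encodes a MYB transcription factor. RNA came from every line once before the cold and once after 6 h in it, at 4 °C in a chamber with 14 h of light and 10 h of darkness. The labels do not give the promoter of the transgene, the kind of mutation or the number of plants behind an array. The level of OsMYB30 is not reported here, since the gene table gives that name only as a synonym of a gene better known as MYBS3. No untreated sample was taken 6 h later, so cold, elapsed time and hour of day cannot be told apart. Each line has 1 sample per time, so p-values measure the spread between lines and between arrays, which may be partly technical.

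Values are the deposited linear intensities of a gene's brightest probe set. Changes are differences of log2(intensity + 16) after quantile normalization, a scale that understates the change of dim genes, with the standard error (SE) of the limma fit. A gene was called where its p, adjusted by Benjamini-Hochberg over 34355 probe sets, was below 0.05. Array medians lay between 34.7 and 37.2, and the number of arrays limits the precision. Readings at or below 73.9, the highest reading of the dim reporter probe sets, are called dim. The wild type stood apart in 1 respect. For 1 reporter probe set, the mutants gave a bright signal (13835.2 to 17781.9), as did the OE lines (11860.8 to 12539.4). The ZH11 control read at most 64.3 for it and the wild type 2658.5 and 3821.8. Results that rest on the wild type are therefore also given without it.

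The leaf genes RBCS, CAB2R, RCA and PPDKB were among the bright genes of the arrays and summed with the dim RBCS1 to 57902.3 to 59772.8. The RBCS probe set in this sum held the highest value of the array on 8 of 12 arrays, so the sum shows that leaf RNA was present and says little of changes in it. A further RBCS probe set, at 2626.8 to 4280.5, was called higher in the cold over all lines (0.27, limma adjusted p = 0.0233). Within the Huayang lines CAB2R was called lower (-0.12). It was the 1 call among 4 leaf genes that passed the filter (25%, against 19.3% of all probe sets). The other 3 had changes above 0, up to 0.16. A second CAB2R probe set of similar brightness changed by 0.05, 0 and -0.01 in mutant 1, mutant 2 and the wild type. All 4 pollen and flower genes outside the members were dim, at most 26.4. Of the members on that list CIN3 was dim too, while CIN1 was bright, at 1129.1 to 1600.2. The root and endosperm lists were mixed as well. Of the 6 root genes LSI2 and NRT2.2 were dim, while IRT1 (90.0 to 190.2), LSI1 (130.9 to 305.8) and NRAMP5 (96.2 to 305.1) read above the dim limit on all arrays, and the list summed to 558.7 to 722.1 before cold and 448.2 to 505.0 at 6 h. Of the 4 endosperm genes, the glutelin gene GLUA1 and the prolamin gene RP5 were dim, while the glutelin gene GLUA2 (231.5 to 325.4) and the starch synthase gene WX1 (88.3 to 140.6) were not.

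In the cold, the sugar uniporter genes SWEET1B, SWEET2B and SWEET16 fell in all 6 lines, and the sucrose transporter gene SUT4 rose in all 6. Over all lines (6 arrays against 6, cultivar as a term), 9 of the 24 members were called, 1 higher and 8 lower. That is 37.5% of the members, against 35.1% of all probe sets tested, of which 14.9% were higher and 20.2% lower. The count of called members is thus near the background. The median change of the members was -0.15 on the log2 scale and that of all probe sets 0.0075.

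SWEET1B (LOC4338851) belongs to the group whose member SWEET1 carries glucose in Arabidopsis. In the ZH11 lines it read 2047.1 (OE2), 1953.7 (OE28) and 1805.2 (control) before cold and 1162.5, 1038.2 and 965.0 at 6 h. In the Huayang lines it read 1560.2 (mutant 1), 1612.1 (mutant 2) and 1566.4 (wild type) before cold and 990.5, 757.0 and 897.1 at 6 h. All 6 cold readings lay below all 6 earlier ones. Within each cultivar 12.9% of all probe sets separated the times downward, and the share over both cultivars together was not counted. The fitted change was -0.83 ± 0.06 (SE), a 1.78-fold decrease (limma, adjusted p = 2.14e-07).

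SWEET2B (LOC4326923) is a member of the SWEET2 group, whose Arabidopsis member lies in the vacuole membrane of root cells. It read 1049.7, 1068.0 and 1278.2 in OE2, OE28 and the ZH11 control before cold and 642.9, 607.3 and 656.0 after it. Mutant 1, mutant 2 and the wild type read 1713.4, 1426.1 and 1670.1 before cold and 1048.0, 864.0 and 978.5 after it. Every line fell and the times did not overlap within either cultivar. Across cultivars they met, since mutant 1 at 6 h lay just under OE2 before cold in the deposited readings and just above it after normalization. The change was -0.73 ± 0.08 (1.66-fold lower, limma adjusted p = 7.03e-06), and a further probe set of the gene gave -0.80 (limma adjusted p = 4.04e-05).

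SWEET16 (LOC4332795) is related to the SWEET16 and SWEET17 uniporters of the Arabidopsis vacuole membrane. OE2, OE28 and the ZH11 control read 178.9, 157.3 and 193.6 before cold and 88.6, 93.3 and 113.5 after it. Mutant 1, mutant 2 and the wild type read 235.1, 224.7 and 245.3 before cold and 129.8, 113.2 and 126.3 after it. No cold reading reached an earlier one, where 12.9% of all probe sets separated the times downward within each cultivar. The change was -0.70 ± 0.08 (1.63-fold lower, limma adjusted p = 2.47e-05).

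**Figure D1:**
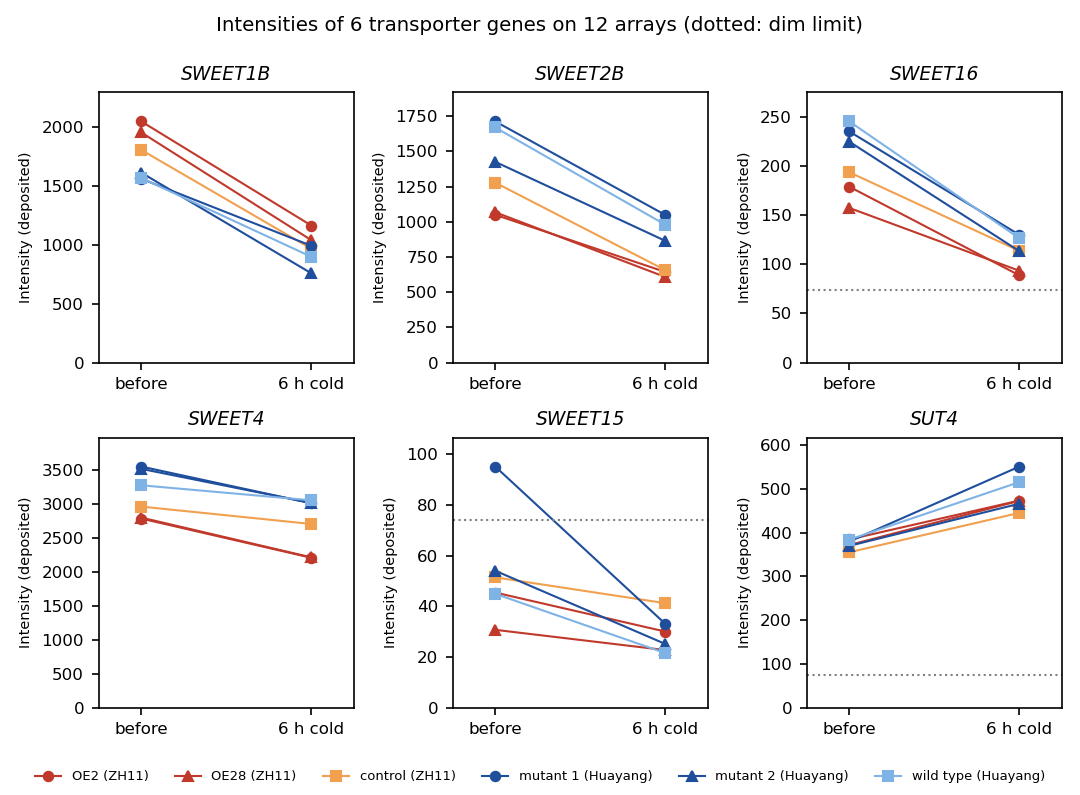
Deposited intensity (vertical axes from 0) of SWEET1B, SWEET2B, SWEET16, SWEET4, SWEET15 and SUT4 before cold and at 6 h, with 1 connected pair of points per line. The lines of SWEET1B, SWEET2B and SWEET16 run down side by side in all 6 lines and those of SUT4 run up, while SWEET15 lies mostly below the dotted dim limit of 73.9.

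SWEET4 (LOC4329093), a hexose transporter gene known from grain filling in rice, moved less. It read 2790.6, 2805.0 and 2967.0 in OE2, OE28 and the control before cold and 2211.1, 2217.4 and 2710.3 at 6 h. In mutant 1, mutant 2 and the wild type it read 3558.0, 3524.2 and 3281.2 before cold and 3015.1, 3020.2 and 3059.6 at 6 h. Every line read lower after cold. The change was -0.23 ± 0.05 (1.17-fold lower, limma adjusted p = 0.00476).

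SWEET15 (LOC4329464) was dim on 11 of 12 arrays. It read 45.4, 30.7 and 51.4 in OE2, OE28 and the ZH11 control before cold and 30.0, 22.7 and 41.2 after it. Mutant 1, mutant 2 and the wild type read 95.1, 54.0 and 44.9 and then 33.0, 25.1 and 21.5. The fall was called (limma adjusted p = 0.0126), but with dim readings set to the limit less than 0.1 on the log2 scale remained, so no size is given. Of the other SWEET genes none was called over all lines. SWEET11 changed by -0.35 ± 0.19, SWEET2A by -0.21 ± 0.09, SWEET1A by -0.08 ± 0.04, SWEET14 by -0.04 ± 0.12 and the gene that carries both names SWEET6A and SWEET6B by 0.06 ± 0.09. Their readings over the 12 arrays ran from 247.3 to 631.6, 969.7 to 1742.2, 1776.3 to 2261.9, 61.6 to 119.8 and 146.3 to 239.8, in that order. SWEET11 changed unevenly between lines, by -0.46 in OE2, -0.47 in OE28, -0.43 in mutant 1 and -0.83 in the wild type, against 0.07 in the ZH11 control and 0.05 in mutant 2. The probe set of SWEET11 and the brightest of SWEET14 are of the kinds that may also bind other transcripts. A second SWEET14 probe set, not of those kinds and nearly as bright, changed by 0.11 in OE2, -0.35 in OE28 and -0.52 in the ZH11 control. In mutant 1, mutant 2 and the wild type it changed by -0.18, -0.06 and -0.10. A further probe set of SWEET1A changed by 0.16 and was not called (limma adjusted p = 0.207).

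As a family, 5 of the 10 SWEET genes that passed the filter fell and none rose, and 9 of the 10 had a fitted change below 0. Of all probe sets 20.2% were called lower and 48.5% had a fitted change below 0. In 6 of them every line changed downward. Over all 24 members the change was below 0 in every line for 9 and above 0 in every line for 2 (SUT4 and CIN1), where 22.7% and 19% of all probe sets did the same. SWEET1B, SWEET2B, SWEET16 and SWEET4 had no overlap between times within either cultivar, downward, as had 12.9% of all probe sets. SUT4 had none upward, as had 8.57%. The root marker genes LSI1 and NRAMP5, transporters of silicic acid and manganese, were also called lower in the cold (-0.35 and -0.47, limma adjusted p = 0.0321 and 0.0318). They were 2 of the 5 root genes that passed the filter (40%, against 35.1% of all probe sets). Within either cultivar 0 of the 5 were called, against 20% (ZH11) and 19.3% (Huayang) of all probe sets. Without a call, IRT1 changed downward in all 6 lines (-0.08 to -0.77), while IRT2 and NRT2.2 were mixed. Of the vein and phloem genes RPP16 changed by -0.30 without a call, SCR1 was dim on most arrays and SHR1 on all. Their sum ran from 1933.0 to 2744.4 before cold and from 1503.2 to 2497.4 at 6 h. With SUT1 counted, 2 of the 4 genes of that list were called lower within the ZH11 lines (50%, against 20% of all probe sets). None was within the Huayang lines (0%, against 19.3%). In OE2, OE28 and the ZH11 control SCR1 changed by -0.25, -0.58 and -0.62, and the dim SHR1 by -0.40, -0.34 and -0.44. The part of these tissues in the SWEET and SUT changes was not tested. In bulk tissue, fewer cells of a type and less RNA per cell cannot be told apart.

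**Figure D2:**
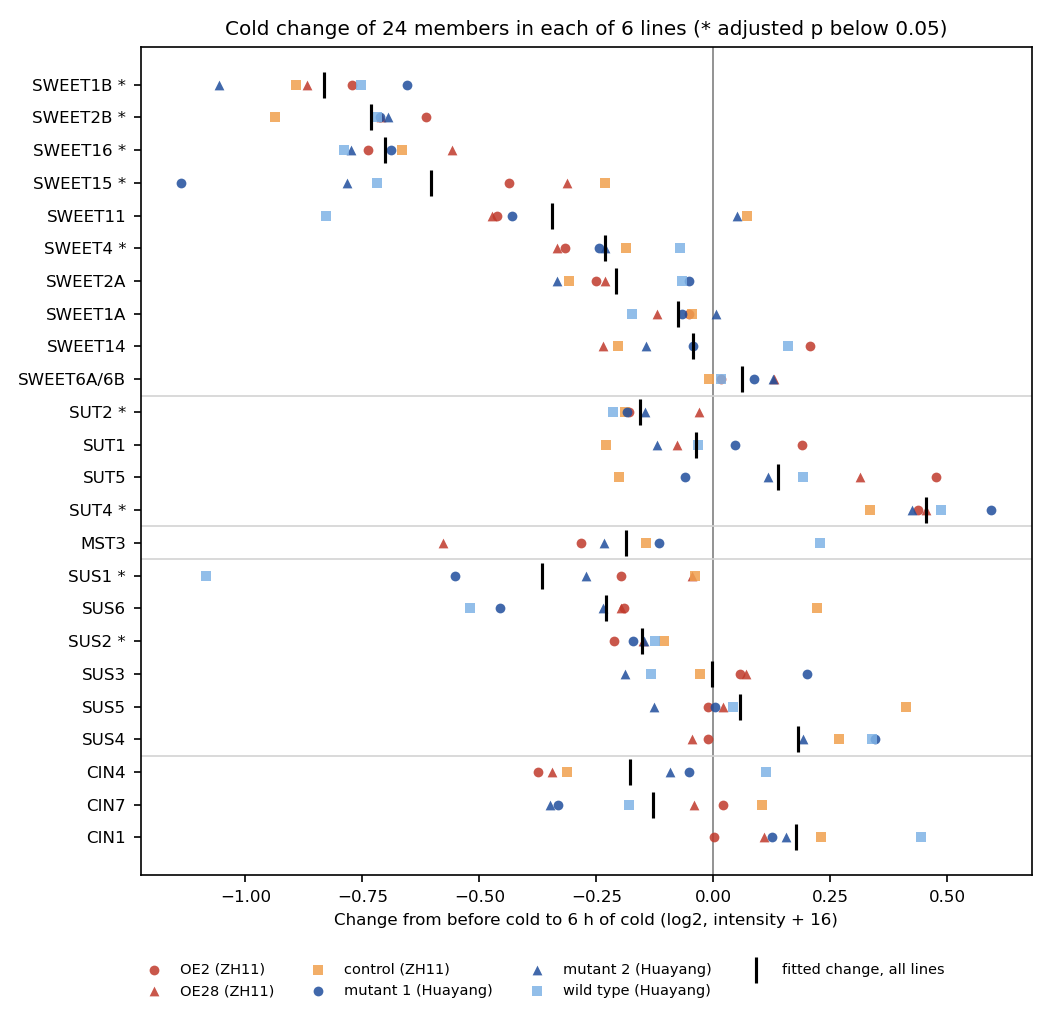
Change from before cold to 6 h (horizontal axis, log2 of intensity + 16) of the 24 members in each of the 6 lines, by family, with the fitted change as a black bar and an asterisk at an adjusted p below 0.05. SWEET1B, SWEET2B and SWEET16 lie left of 0 and SUT4 right of 0 in every line, while SUS1 spreads from -0.04 to -1.09.

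Among the sucrose transporters, SUT4 (LOC4331221) was the member that rose. It is named SUT2 in some sources and is not the vacuolar transporter described as SUT2 below. OE2, OE28 and the ZH11 control read 384.6, 371.8 and 355.3 before cold and 473.6, 473.0 and 445.4 at 6 h. Mutant 1, mutant 2 and the wild type read 379.8, 369.9 and 384.2 before cold and 551.3, 466.4 and 515.8 at 6 h. The lowest cold reading lay above the highest earlier one, where 8.57% of all probe sets separated the times upward within each cultivar. The change was 0.46 ± 0.05 (1.37-fold higher, limma adjusted p = 1.30e-05).

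SUT2 (LOC9266530), the sucrose transporter of the rice vacuole membrane, read 1664.7 to 1854.9 before cold and 1418.9 to 1671.6 after it, and the ranges overlapped. Its change was -0.16 ± 0.05 (limma adjusted p = 0.0259). The call was lost in 6 of 22 alternatives, 4 of which left out a single array (OE2 at 6 h, the ZH11 control or mutant 1 before cold, or the wild type at 6 h). A dim second probe set changed by 0.09 without a call, and with the mean of both probe sets the call was lost (limma, change -0.03, adjusted p = 0.608). SUT1, the transporter best known for sucrose loading and grain filling, changed by -0.04 ± 0.06 and read 311.2 to 434.4. SUT5 was dim throughout, at 20.9 to 39.2, and was not called.

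Of the 6 sucrose synthases, SUS1 (LOC4333062) and SUS2 (LOC4340386) were called lower over all lines. SUS1 read 3120.0, 3622.8 and 3736.1 in OE2, OE28 and the control before cold and 2716.1, 3577.0 and 3768.7 at 6 h. It read 2668.8, 2556.7 and 2820.6 in mutant 1, mutant 2 and the wild type before cold and 1850.2, 2123.5 and 1306.0 at 6 h. All 3 Huayang lines read lower after cold, the wild type the most, while OE28 and the ZH11 control stayed close to their earlier readings. Over all lines the change was -0.37 ± 0.13 (limma adjusted p = 0.0478). Without the wild type it was -0.22 with no call (limma adjusted p = 0.141), and a second probe set of the gene also missed the call (limma adjusted p = 0.0946).

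SUS2 changed by -0.15 ± 0.05 (limma adjusted p = 0.0376), with readings of 2383.7 to 2935.8 before cold and 2192.0 to 2680.4 after it. The call of SUS2 was lost in 10 of 22 alternatives and that of SUS1 in 14, in most of these by leaving out a single array. SUS4 changed by 0.18 ± 0.07, SUS6 by -0.23 ± 0.09 and SUS5 by 0.06 ± 0.16, and none of these or the dim SUS3 was called. SUS5 read 112.3 to 264.1 and SUS3 21.5 to 34.5. None of the 3 invertases that passed the filter was called. CIN1 changed by 0.18 ± 0.07, CIN4 by -0.18 ± 0.13 and CIN7 by -0.13 ± 0.10. CIN1 read 1129.1 to 1600.2. The hexose transporter gene MST3 changed by -0.19 ± 0.10.

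Each line was sampled at both times, so the line can serve as a block. With line as a fixed block all 9 calls over all lines remained and 4 genes joined them (limma, adjusted p in each case). CIN1 (0.0198) and SUS4 (0.0383) were then higher, and SWEET11 (0.0255) and SWEET2A (0.00431) lower. The blocked fit thus called 13 of the 24 members, 3 higher and 10 lower, where it called 45.9% of all probe sets.

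Within the ZH11 lines alone (3 arrays against 3), 5 members were called, or 20.8%, against 20% of all probe sets. SUT4 rose by 0.41 ± 0.07 (limma adjusted p = 0.00159). SWEET1B changed by -0.84 ± 0.09, SWEET2B by -0.75 ± 0.11, SWEET16 by -0.65 ± 0.12 and SWEET4 by -0.28 ± 0.08, all called lower by limma (adjusted p between 2.65e-05 and 0.0221). The call of SWEET4 was lost in 4 of 16 alternatives (limma adjusted p up to 0.0941), namely with only the arrays of ZH11 and without OE2 at 6 h, OE28 at 6 h or the control before cold. With line as a block CIN4, MST3, SUS2, SWEET15 and SWEET2A were called lower as well, which made 10 of 24, against 33.8% of all probe sets in that fit.

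Within the Huayang lines 8 members were called, or 33.3%, against 19.3% of all probe sets. With the filter at the 60th percentile 7 were called, against 26% of all probe sets. SUT4 rose by 0.50 ± 0.07 (limma adjusted p = 0.000347). SWEET1B, SWEET16 and SWEET2B changed by -0.82 ± 0.09, -0.75 ± 0.12 and -0.71 ± 0.11, all called by limma (adjusted p between 3.51e-05 and 0.000844). The dim SWEET15 was called lower with no size given (limma adjusted p = 0.0121).

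Of the sucrose synthases in the Huayang lines, SUS1 changed by -0.64 ± 0.16 (limma adjusted p = 0.0148). SUS6 (LOC4331252) read 91.2, 86.6 and 75.8 in mutant 1, mutant 2 and the wild type before cold and 60.4, 68.3 and 47.7 at 6 h, below the dim limit on all 3 cold arrays. Its fall was called (limma adjusted p = 0.0340) and amounted to at least 0.13 on the log2 scale. SUS4 (LOC4332788) read 309.5, 346.5 and 309.4 before cold and 376.3, 370.3 and 369.1 after it. It changed by 0.29 ± 0.09 (limma adjusted p = 0.0496).

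Without both wild type arrays SUT4, SWEET1B, SWEET2B, SWEET16 and SWEET15 were still called in the Huayang lines. SUS1 (-0.41, adjusted p = 0.143), SUS6 (-0.35, adjusted p = 0.125) and SUS4 (0.27, adjusted p = 0.231) were then not called by limma, and 11.4% of all probe sets were. SUS4 also lost its call without any 1 mutant array, and SUS6 without either array of mutant 1 or mutant 2 before cold. Without only the wild type array at 6 h, 4 members remained called, against 14.9% of all probe sets, and SWEET15 was not among them (limma, adjusted p = 0.0527). With line as a block 13 of 24 were called, with CIN1 higher and CIN7, SUS2, SUT2 and SWEET4 lower in addition, against 30.9% of all probe sets.

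No member had a called difference of its cold change between the cultivars, and 0.102% of all probe sets had one. At an unadjusted p below 0.05 there was 1 of the 24 members, SUS1, against 4.73% of all probe sets. Its cold change in ZH11 minus that in Huayang was 0.54 ± 0.23, with a 95% interval of 0.05 to 1.04 (limma adjusted p = 1). For the genes that changed in both cultivars the intervals of this difference were -0.29 to 0.25 for SWEET1B, -0.39 to 0.30 for SWEET2B, -0.28 to 0.47 for SWEET16 and -0.32 to 0.13 for SUT4. The unadjusted count and these intervals come from the fit without line as a block. With line as a fixed block again no member was called, where 0.576% of all probe sets were. The lowest limma adjusted p of the members in that fit were 0.126 for the dim SWEET15, 0.242 for CIN7, 0.258 for CIN4 and 0.270 for SUS1. Their differences, SWEET15 aside, were 0.31 ± 0.09, -0.33 ± 0.10 and 0.54 ± 0.17. A p above the threshold does not show that the cultivars respond alike.

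Overexpression of OsMYB30 went with higher signal of the cell wall invertase genes CIN4 and CIN7 and lower signal of SWEET4. In the mean of both times 3 of the 24 members were called, or 12.5%, against 4.06% of all probe sets. With the filter at the 60th percentile the same 3 were called, against 6.55% of all probe sets. With line as a random block (correlation 0.334) none of the 3 was called (limma, adjusted p = 0.0576 for CIN4, 0.0953 for CIN7 and 0.0928 for SWEET4), where 1.24% of all probe sets were. The phloem protein gene RPP16 and the root gene NRAMP5 were called lower in the OE lines too (-0.49 and -0.70, limma adjusted p = 0.0472 and 0.0242). Other genes of the 2 lists were not called and went different ways. IRT1 (0.07 to 0.48), the mostly dim SCR1 and the dim IRT2 stood above the control in both OE lines at each time. The dim SHR1 and LSI2 stood below it, and LSI1 and the dim NRT2.2 were mixed. The sum of RPP16, SCR1 and SHR1, most of it RPP16, was 1757.4 to 2165.1 in the OE lines and 2497.4 to 2744.4 in the control. The part of these tissues in the invertase and SWEET4 differences was not tested. The median difference of the members was -0.16 and that of all probe sets -0.0041.

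CIN4 (LOC4324001) read 163.9 in OE2, 140.9 in OE28 and 92.6 in the ZH11 control before cold. At 6 h it read 107.8, 98.7 and 70.3, the last under the dim limit. All 4 OE readings lay above the control array of the same time. The difference was 0.51 ± 0.09 (1.42-fold higher, limma adjusted p = 0.0270), and 0.49 with the dim reading set to the limit. Its brightest probe set is of a kind that covers several transcripts of 1 gene.

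CIN7 (LOC4346527) read 252.3 in OE2, 261.8 in OE28 and 167.5 in the control before cold, and 223.6, 225.1 and 172.0 at 6 h. Again each OE array stood above the control of its time. The difference was 0.37 ± 0.08 (1.30-fold higher, limma adjusted p = 0.0473). In the Huayang lines CIN7 read 216.1 to 325.7, so the 2 control arrays of ZH11 were the lowest of the 12.

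SWEET4 was lower in both OE lines than in the control at each time, by the readings given above. Its difference was -0.21 ± 0.04 (1.16-fold lower, limma adjusted p = 0.0406). The brightest probe set of SWEET14 had a difference of -0.49 ± 0.12 (limma adjusted p = 0.0558), and -0.45 with dim readings set to the limit. SWEET16 had one of -0.32 ± 0.08 (limma adjusted p = 0.0676), both without a call. In all, 4 members (CIN4, CIN7, SUS5 and SWEET1B) had all 4 OE minus control differences above 0. For 9 members, 6 of them SWEET genes, all 4 lay below 0. Of all probe sets 22.9% had all 4 above 0 and 24.1% all 4 below it. The 4 differences share the 2 control arrays and are not independent.

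These 3 calls rest on a single control line, for which the fit borrows the spread of the other groups. Without OE2 at either time none was called. Without OE28 at 6 h only CIN4 was, and without OE28 before cold CIN4 and SWEET14 were (limma).

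**Figure D3:**
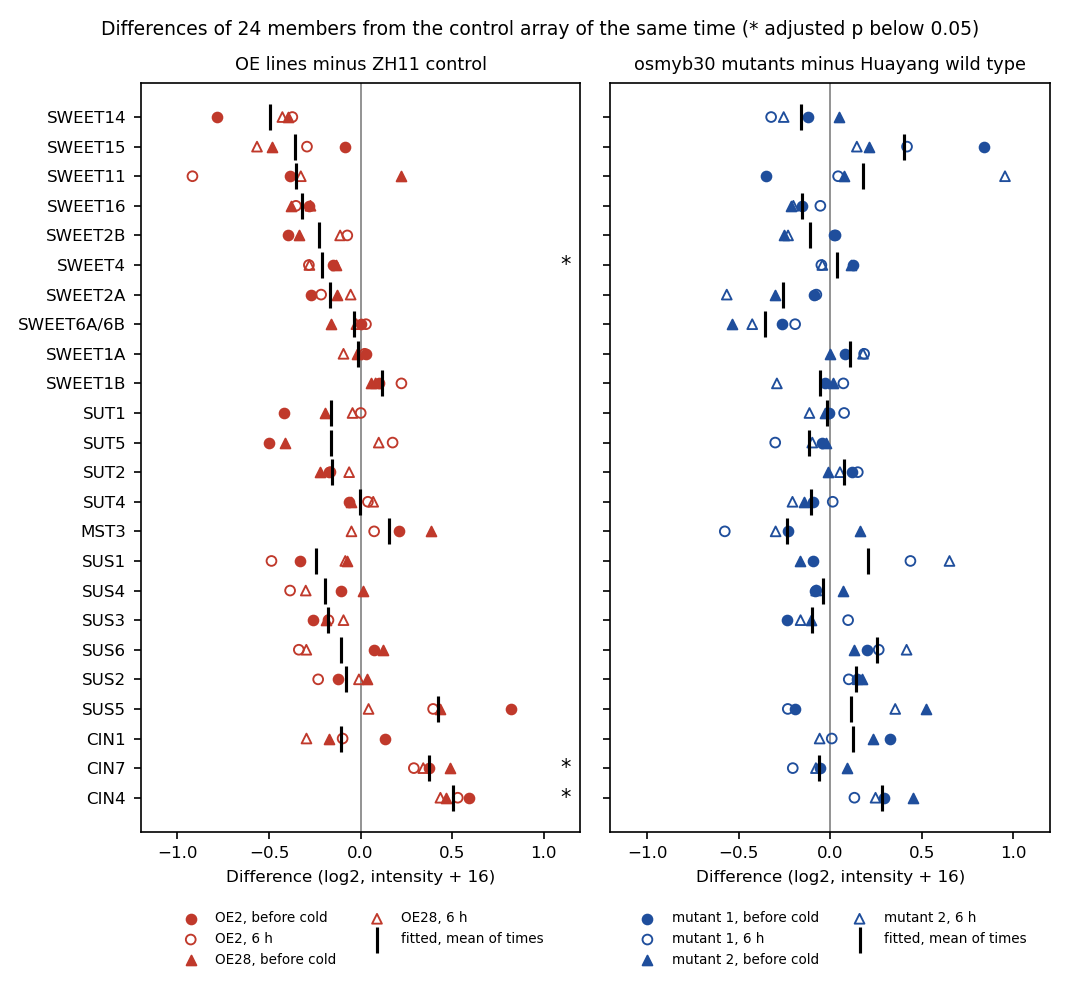
Difference (log2 of intensity + 16) of each OE line from the ZH11 control and of each osmyb30 mutant from the Huayang wild type at the same time, for the 24 members, with the fitted mean of both times as a black bar and an asterisk at an adjusted p below 0.05. All 4 points of CIN4 and CIN7 lie right of 0 in the OE lines and those of SWEET4 left of 0, while no member has an asterisk in the mutants.

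At a single time no member was called in the OE lines, where 0.571% of all probe sets were called before cold and 0.311% were at 6 h of it. At an unadjusted p below 0.05 there were 8 of 24 members before cold and 7 at 6 h, against 21.1% and 10.1% of all probe sets. CIN4 differed by 0.53 ± 0.13 before cold and, with the dim control reading at the limit, by at least 0.45 at 6 h (limma adjusted p = 0.0888 and 0.237). No cold change was called as different between the OE lines and the control, for the members or for any probe set (0%), with 2 members at an unadjusted p below 0.05 (4.08% of all probe sets). These were the dim SUT5, for which no size is given, and SUS6. SUS6 read 114.2, 114.6 and 99 in OE2, OE28 and the control before cold and 88.7, 90.8 and 112.5 at 6 h, lower after cold in both OE lines and higher in the control. The difference of its cold changes was -0.42 ± 0.16 (limma adjusted p = 1.00).

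In the osmyb30 mutants no member was called. This held for the mean of both times (0.0262% of all probe sets called), before cold (0.00291%), at 6 h (0.0204%) and for the difference of the cold change (0%). At an unadjusted p below 0.05 limma gave 3, 2, 4 and 1 of the 24 members, against 12.5%, 5.05%, 9.52% and 2.93% of all probe sets. Of the members above the dim limit, SWEET6A/SWEET6B had a mean difference of -0.35 ± 0.11 and CIN4 one of 0.28 ± 0.09 (limma adjusted p = 0.311 and 0.313).

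CIN4 read 135.7 in mutant 1, 154.1 in mutant 2 and 101.7 in the wild type before cold, and 123.0, 131.5 and 105.0 at 6 h. It thus stood above its control in both mutants as it did in both OE lines, without a call in the mutants. At 6 h SUS1 differed by 0.54 ± 0.17 (limma adjusted p = 0.409), where the wild type read 1306.0 against 1850.2 and 2123.5. With 1 wild type line that carried the reporter signal given above, these values are a description of those plants.

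The cultivars differed in the level of 9 members over 6 arrays each, or 37.5%, against 16.9% of all probe sets. With the filter at the 60th percentile the same 9 were called, against 22.5% of all probe sets. The ZH11 lines hold the OE plants and the Huayang lines the mutants, so cultivar and kind of altered line cannot be told apart in this contrast. MST3 (LOC4342198), a proton-coupled hexose transporter gene, read 2559.5, 2861.1 and 2125.6 in OE2, OE28 and the control before cold and 2082.6, 1917.7 and 1959.8 at 6 h. In mutant 1, mutant 2 and the wild type it read 3659.1, 4830.0 and 4306.4 before cold and 3435.9, 4204.7 and 5005.1 at 6 h. Every Huayang array lay above every ZH11 array, as it did for 3.46% of all probe sets. The difference, ZH11 minus Huayang, was -0.91 ± 0.10 (1.88-fold lower in ZH11, limma adjusted p = 5.34e-05).

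The other members lower in ZH11 were SWEET2B (-0.53 ± 0.08), SUS4 (-0.40 ± 0.07), SWEET16 (-0.32 ± 0.08), SWEET4 (-0.31 ± 0.05) and SUT1 (-0.24 ± 0.06), with limma adjusted p between 0.000347 and 0.0214. Higher in ZH11 were SUS1 (0.64 ± 0.13), SWEET1B (0.29 ± 0.06) and SUS6, with limma adjusted p between 0.00378 and 0.00484. SUS6 was the 1 member whose normalized ZH11 values all lay above the Huayang ones (2.37% of all probe sets), and its difference was at least 0.34 because the Huayang lines averaged below the dim limit. In the same cultivar contrast the leaf gene PPDKB was lower in ZH11 (-0.19, limma adjusted p = 0.0389), and its part was not tested. It was the 1 call among 4 leaf genes that passed the filter (25%, against 16.9% of all probe sets). Of these 4, 2 differed above 0 and 2 below, from -0.19 to 0.07. With line as a random block SUT1 was no longer called (limma adjusted p = 0.0732), nor was it without OE28 at 6 h. Without the wild type SUT1 and SWEET16 were not called (limma adjusted p = 0.0808 and 0.0960), and SWEET6A/SWEET6B was called in addition.

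**Figure D4:**
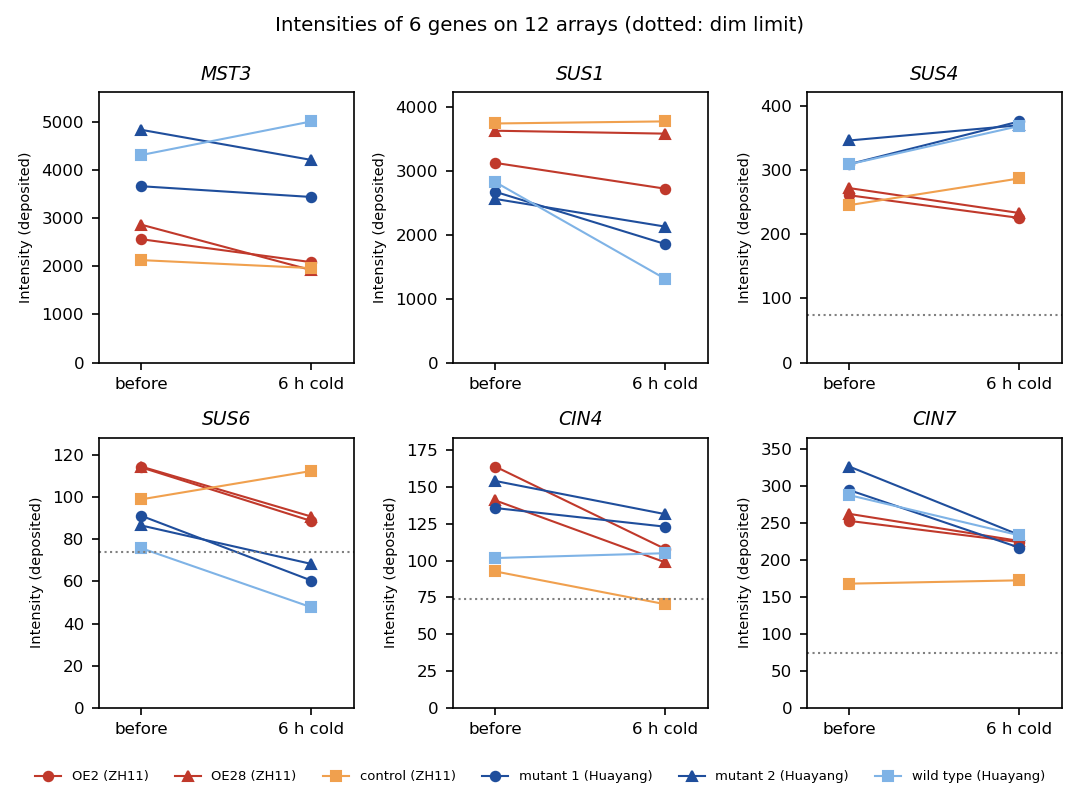
Deposited intensity (vertical axes from 0) of MST3, SUS1, SUS4, SUS6, CIN4 and CIN7 before cold and at 6 h, with 1 connected pair of points per line. MST3 separates the ZH11 lines (1917.7 to 2861.1) from the Huayang lines (3435.9 to 5005.1), and for CIN4 and CIN7 the ZH11 control lies below both OE lines.

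Before cold SWEET1B read 1805.2 to 2047.1 in the ZH11 lines and 1560.2 to 1612.1 in the Huayang lines. In that order SWEET2B read 1049.7 to 1278.2 and 1426.1 to 1713.4. SWEET16 read 157.3 to 193.6 and 224.7 to 245.3, and MST3 2125.6 to 2861.1 and 3659.1 to 4830.0. The share of all probe sets that separate the cultivars before cold was not counted. SWEET1B and SWEET2B read lower after cold in every line.

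The other genes of sucrose and hexose metabolism were followed in the same cold contrast. Of 18 genes kept from a list of sucrose phosphate synthases, sucrose phosphate phosphatases, hexokinases, fructokinases and cytosolic fructose bisphosphatase, 14 had a probe set and 12 passed the filter. Of these 12, 1 rose and 1 fell over all lines (16.7%, against 35.1% of all probe sets), with a median change of 0.01. The sucrose phosphate phosphatase gene SPP2 (LOC4328274) read 1174.3 to 1491.7 before cold and 1310.4 to 1586.1 after it, and changed by 0.14 ± 0.04 (limma adjusted p = 0.0118). The gene named both HXK2 and HXK6, a hexokinase gene, changed by -0.14 ± 0.05 (limma adjusted p = 0.0307). In the OE lines 1 of the 12 was called (8.33%, against 4.06% of all probe sets). This was SPP1 (LOC4325448), lower than in the control (-0.44 ± 0.07, limma adjusted p = 0.0210). In both mutants SPP1 stood above the wild type at each time (0.37 to 0.80), without a call.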

How the data were processed

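The deposited values are probe set intensity values on a linear scale, 1 column per array, as deposited by the authors. How probes were summarised and scaled is not given in the sources used here. Of 57381 rows, 123 control probe sets were left out. Platform annotation paired 22436 probe sets with 1 gene and 95 with several. Genes were named through a RefSeq gene table, and each gene is represented by its brightest probe set.

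Intensities were taken as log2(intensity + 16) and quantile normalized, since array quartiles differed by up to 0.238. A filter at the 40th percentile of the mean left 34355 of 57258 probe sets. limma 3.58.1 in R 4.3.3 fitted the models (lmFit, eBayes with trend), with Benjamini-Hochberg adjustment. Cold was fitted with cultivar and time, or per cultivar, and genotype as 8 group means, which leaves 4 residual degrees of freedom. The fits were tested on simulated arrays whose noise had no line effect. Of 67 probe sets given a log2 change of 0.5, 61 were recovered for cold over all lines. For the mean of both times 30 were recovered in the OE lines and 32 in the mutants. At 6 h these were 5 and 9, and for the difference of cold changes 0 and 1. Changes of that size could thus be missed in the genotype contrasts.

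The line pairs the arrays, because both times come from the same line. Within a line, deviations from the group means had a correlation of 0.517 (OE lines) and 0.429 (mutants). Line was a fixed block for cold and a random block (correlation 0.334, or 0.362 for cultivar) otherwise.

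Named genes are all members called in a cold, OE, mutant or interaction contrast, with SWEET1B, SWEET2B, SWEET16, SUT4 and CIN4 always given. Of other members the range is given. Members, lists and tests were chosen with earlier results of these data known. From the list of other sugar genes 4 of 22 matches were left out, because their names are shared with other kinds of protein. Other settings tried were the deposited values without normalization, median centring, other filters and pseudocounts, no trend, the mean of a gene's probe sets, line as a block, arrays of 1 cultivar only, and each array left out in turn. Leaving out both wild type arrays was added after seeing the data. No sequence is shown, because no sequence table was used here.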

Additional observations from a re-analysis of the deposited data

How the results depend on the processing

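Of 800 values of members under alternative settings, 715 kept their direction and their side of the threshold, 79 kept the direction and lost the call, and 6 turned in sign without being called in either fit. SUT4 in OE against control (-0.0016) became 0.085 as deposited, 0.12 with median centring, and ran from -0.0091 to 0.0055 when each OE array was left out in turn, above 0 (0.0018 and 0.0055) without either OE2 array. SWEET1B in mutants against wild type (-0.06) became 0.0048 with median centring, and ran from -0.15 to 0.032 when each mutant array was left out in turn, above 0 without mutant 2 at 6 h. Of 199 counts of called members, 188 stayed within 1.5 times. The exceptions follow. For OE against control in the mean of both times the count of 3 became 1 without the filter, 1 with only the arrays of the cultivar and 0 with line as a random block, and ran from 0 to 2 when each OE array was left out in turn. Before cold it rose from 0 to 1 (CIN7) with median centring. For cold in ZH11 it rose from 5 to 10 with line as a fixed block. For cold in Huayang it rose from 8 to 13 with that block, fell to 5 without both wild type arrays (added after seeing the data), and ran from 4 to 7 when each array was left out in turn. In each case the cause was not tested. SWEET1B, SWEET2B, SWEET16, SWEET4 and SUT4 were called for cold over all lines in all 22 alternatives, and SWEET15 in all 21 that tested it. SUS1 lost its call in 14 of 22, SUS2 in 10 and SUT2 in 6. SUS4 in Huayang lost its call in 11 of 17 alternatives. Of 14 alternatives for the OE lines, CIN4 lost its call in 3, CIN7 in 8 and SWEET4 in 10. The block changed no call other than those given. Without the filter the dim CIN2 was called lower in the cold. Low signal limits what can be said of CIN2, CIN3, MST5, SWEET5, SWEET12, SUS3, SUT5 and SWEET15, and 1 control line per cultivar limits every genotype comparison.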

Other observations

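Some members lie close together in the gene table. CIN2 and CIN3 are direct neighbours, as are CIN5 and CIN6, and SUS4 and SWEET16 have 7 genes between them. CIN2 and CIN3 were both dim, and CIN5 and CIN6 were not measured. SUS4 and SWEET16 changed by 0.18 and -0.70 in the cold over all lines, the first without a call, and both were lower in ZH11 than in Huayang.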
